A study of Mus musculus and Homo sapiens with 33 samples.

Results

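Alpha and beta tubulin are the subunits of microtubules, and 10 mouse genes for them were followed here: the alpha isotypes Tuba1a, Tuba1b, Tuba1c and Tuba4a and the beta isotypes Tubb2a, Tubb2b, Tubb3, Tubb4b, Tubb5 and Tubb6. They were chosen by gene symbol, 10 of the 38924 Ensembl genes in the count matrix, and 9 of them had enough reads to be tested. Tubb3 is listed at 0 in every library. RNA was measured in KPL cells, a murine lung adenocarcinoma line, as 3 control libraries (ethanol, named EtOH in the descriptions) and 3 libraries of cells given 4-hydroxytamoxifen (4-OHT) for 72 hours at a dose that the labels write as 10 nm. The labels state that 4-OHT deletes Lin9. This gene encodes a subunit at the core of MuvB, a complex that acts at genes of late cell cycle. The labels name neither the engineered Lin9 allele nor the recombinase, and all 6 libraries come from this 1 line. No group received 4-OHT without deletion, so the agent and the loss of Lin9 cannot be told apart.

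An alpha and a beta subunit form a dimer, and dimers assemble head to tail into the hollow polymer that builds the mitotic spindle, tracks for transport, and the axoneme of cilia. Isotypes of each subunit are very alike in sequence and differ mostly in the acidic C-terminal tail, where modifying enzymes and motors bind. Cells also hold their tubulin level steady by autoregulation: excess free dimer leads to decay of tubulin mRNAs while they are being translated. MuvB joins B-MYB and FOXM1 at promoters of genes expressed in late cell cycle, where its LIN54 subunit reads the cell cycle genes homology region, or CHR, often near CCAAT boxes bound by NF-Y.

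After 4-OHT the class II beta isotypes Tubb2a and Tubb2b were higher, and the class IVb isotype Tubb4b was lower. Tubb2b rose by 35.4% and Tubb2a by 19.6%, while Tubb4b fell by 16.2%. Tubb6 was lower by a smaller amount (log2 fold change -0.13), a call that did not hold in most alternatives. The 4 alpha isotypes and Tubb5 did not pass the test, and the summed level of neither subunit changed by an amount the test called.

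The promoter sequences of the called genes Tubb4b and Tubb2a, with that of Tubb5, the beta isotype with the most reads, are shown because Tubb4b, alone among the 8 members in the RefSeq promoter table, had the letters TTTGAA, the core of a CHR. Each window runs from 250 bases before to 50 bases after the annotated start (RefSeq, GRCm38.p6), all 3 on the minus strand and written 5′ to 3′ along the gene. They lie at chr2:25224653-25224952 (Tubb4b), chr13:34077959-34078258 (Tubb2a) and chr17:35838252-35838551 (Tubb5). Capitals mark the CHR core (TTTGAA), the box read by NF-Y (CCAAT) and the TATA element (TATAAA), on either strand.
Tubb4b: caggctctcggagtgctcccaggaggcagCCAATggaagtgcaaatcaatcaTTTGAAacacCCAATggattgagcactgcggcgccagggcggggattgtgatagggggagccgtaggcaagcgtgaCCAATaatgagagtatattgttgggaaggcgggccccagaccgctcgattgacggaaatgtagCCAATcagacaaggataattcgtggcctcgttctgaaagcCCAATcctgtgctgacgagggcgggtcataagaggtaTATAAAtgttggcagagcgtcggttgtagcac
Tubb2a: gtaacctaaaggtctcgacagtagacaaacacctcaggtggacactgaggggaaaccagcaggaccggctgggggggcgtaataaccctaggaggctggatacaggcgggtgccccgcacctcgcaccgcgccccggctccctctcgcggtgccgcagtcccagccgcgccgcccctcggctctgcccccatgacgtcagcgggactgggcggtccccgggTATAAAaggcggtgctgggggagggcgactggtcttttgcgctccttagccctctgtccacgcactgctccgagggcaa
Tubb5: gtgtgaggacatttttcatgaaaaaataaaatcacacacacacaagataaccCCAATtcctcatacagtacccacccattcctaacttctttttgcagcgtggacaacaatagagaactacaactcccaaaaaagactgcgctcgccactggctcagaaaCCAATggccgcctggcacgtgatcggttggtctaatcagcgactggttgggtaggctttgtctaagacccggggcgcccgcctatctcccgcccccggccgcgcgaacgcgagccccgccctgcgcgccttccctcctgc
In Tubb4b the TTTGAA match began at -198, counted in bases from the annotated start, between CCAAT matches that began at -221 and -188. This window held 5 CCAAT matches, all on the gene's strand. TATAAA began at -29 in Tubb2a and 18 bases after the start in Tubb4b. The Tubb5 window held CCAAT at -198 and -90 and no TTTGAA.

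The motifs below were searched on both strands, with no overlap between the matches found in tubulin windows. They were the CHR core TTTGAA with its variant form TTCGAA, the NF-Y box CCAAT, the TATA element TATAAA, and the core CATTCC read by the TEAD partners of YAP. Across all 32851 promoter windows in the table TTTGAA was found in 17.9%, and among 11618 windows of genes tested here in 12.0%. It was found in 1 of the 8 tubulin windows. That is near these shares, so the match is not read as a result about Tubb4b. CCAAT was found in 37.4% of all windows and in 5 of the 8 of the tubulin genes (Tubb4b, Tubb3, Tuba1a, Tuba1c and Tubb5). At least 5 copies of CCAAT were present in 89 windows, that of Tubb4b among them. The share was 0.271% of all windows and 0.473% of those of tested genes. The cut of 5 is the count found in Tubb4b itself, so these shares are no test of its window. At least 2 copies were present in 11.7% of all windows. TATAAA was found in 13.6% of all windows, in 7.39% of those of tested genes, and in those of Tubb4b and Tubb2a. TTCGAA occurred in 1.56% of windows and in none of the 8, and CATTCC in 14.7% and in Tubb5 alone of the 8, at -174. No window was matched for Tubb2b or Tubb6. The Tuba4a window (chr1:75219245-75219544, minus strand) lies inside the span of the gene. The outer end of that gene, at 75221261, was not searched. A match describes letters in a window and does not show that a factor binds there, and the ChIP-seq libraries of the series were not analysed here.

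**Figure D1:**
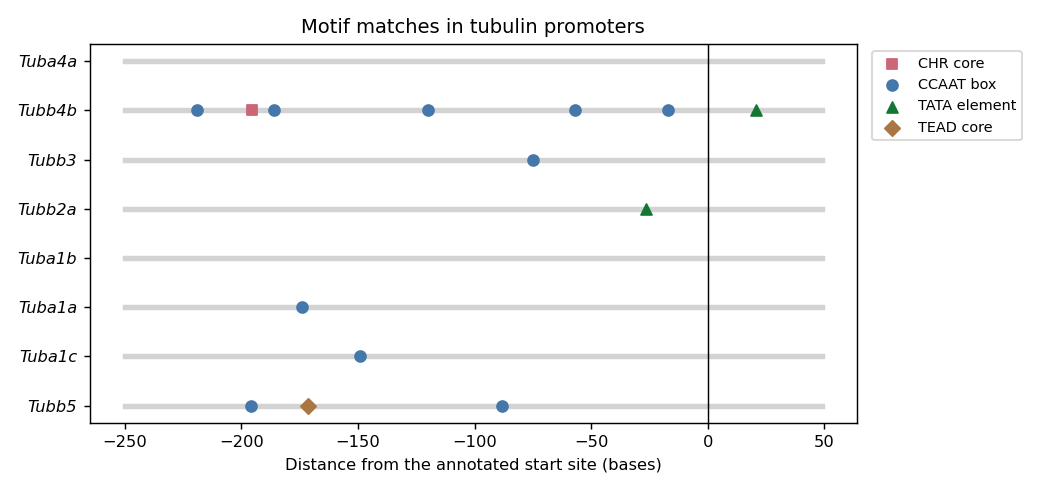
Motif matches in the promoter windows of 8 tubulin genes, by distance from the annotated start site in bases; grey bars are the windows and symbols mark the centre of each match on either strand (CHR core, CCAAT box, TATA element and TEAD core, with the letters given above). The Tubb4b window carries the one CHR core and 5 CCAAT matches, the Tubb5 window 2 CCAAT matches, and the windows of Tuba4a and Tuba1b none of the motifs searched.

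The 6 libraries held 5859826 to 5913942 counted reads each, so their precision was nearly the same. Reads of Lin9 itself numbered 156, 124 and 159 in the control and 108, 107 and 101 in the 4-OHT libraries (log2 fold change -0.49, SE 0.11, edgeR adjusted p = 0.0011). The count covers the whole gene, including any exons that the deletion leaves in place. The epithelial markers Krt8, Krt18, Krt19, Krt7, Epcam and Cdh1 together had 6046 to 6205 CPM (reads scaled to library size, defined below) per library. Of these, Epcam, Cdh1 and Krt7 were called lower. Of 8 lung lineage markers, Sftpc and Sftpa1 are listed at 0, and the 8 summed to 10.4 to 10.8 CPM in control and 7.45 to 7.97 CPM in 4-OHT libraries, with no call among the 2 tested. Fibroblast markers (4 of 5 with reads, Lum at 0) summed to 5.58 to 9.36 CPM and endothelial markers (3 of 3) to 2.21 to 4.06 CPM. Leukocyte markers (3 of 4, Cd3e at 0) summed to 3.24 to 8.86 CPM, and in each of these sets the groups overlapped. Only 2 fibroblast and 2 leukocyte markers had enough reads to be tested, with no call, and no endothelial marker was tested. No label says that the 3 libraries of a group were grown apart. The p-values therefore measure a spread between libraries that may be technical.

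Levels are in CPM, the read count of a gene scaled to the size of its library by edgeR with TMM factors. Only the sums of cell type markers were scaled to library totals without these factors. Lower and higher are used for a Benjamini-Hochberg adjusted p under 0.05 over all genes tested. On this rule 2 of the 9 tested tubulin genes were higher and 2 lower, where 9.79% of the 13355 genes tested were called (5.17% lower and 4.61% higher). DESeq2 called the same but for Tubb6: 2 higher and 1 lower, where it called 4.27% of all genes (2.71% lower and 1.56% higher). The CPM values of the 2 groups did not overlap for 8 of the 9, 4 of them lower and 4 higher, where 24.3% of all genes tested had groups that did not overlap (12.2% lower and 12.1% higher). The median log2 fold change of the 9 was 0.05, and that of all genes tested was 0.00052. In bulk RNA, fewer cells that express an isotype and less of its RNA per cell cannot be told apart.

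Tubb2b (ENSMUSG00000045136), a class II beta tubulin best known from migrating and differentiating neurons, had the largest change of the 9. Its level was 130.1, 140.8 and 127.0 CPM in the control and 172.3, 184.0 and 182.6 CPM in the 4-OHT libraries. Every 4-OHT library was above every control library, with a gap wider than the range within either group. The means were 132.6 ± 7.25 and 179.6 ± 6.42 CPM (SD, n = 3 each). In edgeR the log2 fold change was 0.44 (SE 0.05, 95% interval 0.35 to 0.53, adjusted p = 1.2e-12). Among the 616 genes called higher only 2 had a smaller p-value, a rank that depends on read depth as well as on the size of the change. The call held in all 14 alternative fits, with log2 fold changes from 0.41 to 0.48.

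Tubb2a (ENSMUSG00000058672), the neighbouring class II gene, encodes a nearly identical protein and is more widely expressed. It stood at 100.3, 97.9 and 96.7 CPM in the control and 115.3, 119.8 and 117.6 CPM in the 4-OHT libraries. The groups were separate and the spread within each was small. The means were 98.3 ± 1.85 and 117.6 ± 2.23 CPM, and edgeR gave a log2 fold change of 0.26 (SE 0.05, 95% interval 0.16 to 0.36, adjusted p = 0.00013). The call also held in all 14 alternative fits.

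The genes lie 48999 bases apart on chromosome 13, Tubb2a at 34074278 to 34078008 and Tubb2b at 34127008 to 34130354 (RefSeq, GRCm38.p6). Reads from such near-identical copies may be divided between them in ways the sources used here do not state. With the reads of both summed as 1 feature, edgeR gave a log2 fold change of 0.36 (SE 0.04, adjusted p = 9.2e-13), so the class II total was higher whichever copy its reads came from. Within the pair, the Tubb2b over Tubb2a read ratio was 1.30, 1.44 and 1.31 in the control and 1.49, 1.54 and 1.55 in the 4-OHT libraries. These groups did not overlap, but 3 against 3 libraries cannot go below an exact permutation p of 0.10 (two-sided), which is the p here (0.125 adjusted over 5 ratios chosen after the values were seen). This test could not have passed 0.05, and no fitted test of the difference between the pair was run.

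Tubb4b (ENSMUSG00000036752), a class IVb beta tubulin found in most tissues and prominent in cilia, moved the other way. Its level was 328.8, 343.6 and 356.9 CPM in the control and 290.1, 280.4 and 292.1 CPM in the 4-OHT libraries. All 4-OHT libraries were below all control libraries. The means were 343.1 ± 14.0 and 287.5 ± 6.27 CPM, and edgeR gave a log2 fold change of -0.25 (SE 0.04, 95% interval -0.33 to -0.18, adjusted p = 5.4e-08). The call held in all 14 alternative fits, with log2 fold changes from -0.28 to -0.23. Markers of ciliated cells (Foxj1 and Dnah5) summed to 3.58 to 5.45 CPM in the control and 3.90 to 5.26 CPM in the 4-OHT libraries, with overlapping ranges and no call. The called genes of the whole table had a median absolute log2 fold change of 0.30 (quartiles 0.19 and 0.46), so the Tubb4b change lay within the middle of that range.

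A pseudogene, Tubb4b-ps1, lies on chromosome 5 at 7179296 to 7180843, within the span of Zfp804b, and had 0.519 to 0.564 reads for each Tubb4b read. Its level was 185.4, 188.2 and 186.7 CPM in the control and 152.4, 145.6 and 154.9 CPM in the 4-OHT libraries, lower in each 4-OHT library (log2 fold change -0.31, SE 0.04, edgeR adjusted p = 4.6e-08). Zfp804b had only 2 to 7 reads per library. The ratio of pseudogene to Tubb4b reads overlapped between the groups (exact permutation p = 0.30, n = 3 each). Reads of so close a copy could be divided between the pair, so the level of Tubb4b is uncertain. Summed as 1 feature, the pair was at 529.9 ± 14.8 CPM in the control and 438.5 ± 11.1 CPM in the 4-OHT libraries, lower in edgeR (log2 fold change -0.27, SE 0.03, adjusted p = 2.2e-10). The Tubb4b gene lies on chromosome 2 at 25222158 to 25224702 and shares 124 bases with Fam166a, which had 1 read in all libraries together.

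Tubb6 (ENSMUSG00000001473, on chromosome 18), a class V beta tubulin linked to less stable microtubule arrays, was counted at 167.2, 176.7 and 175.2 CPM in the control and 154.6, 161.6 and 157.5 CPM in the 4-OHT libraries. The groups did not overlap, although the gap between them was narrow. Its log2 fold change was -0.13 (SE 0.04, 95% interval -0.22 to -0.04, edgeR adjusted p = 0.040). The call was lost with library totals alone (adjusted p = 0.061), in DESeq2 (0.253) and in limma-voom (0.051), without a low-count filter (0.0504), and without any 1 of 5 libraries: control replicates 2 (0.157) and 3 (0.139), and 4-OHT replicates 1 (0.155), 2 (0.056) and 3 (0.069).

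Tubb5 (ENSMUSG00000001525, chromosome 17 at 35833920 to 35838301), the class I gene used by dividing cells of most tissues, took most of the beta tubulin reads, 65.4% to 67.4% per library. It stood at 1449.6, 1501 and 1430.7 CPM in the control and 1514, 1482 and 1546 CPM in the 4-OHT libraries. The groups overlapped, and no change was called (log2 fold change 0.05, 95% interval -0.0039 to 0.11, edgeR adjusted p = 0.282). In percent of control the interval ran from -0.273% to 7.74%.

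Tubb3 (ENSMUSG00000062380), the class III isotype that marks neurons and is often raised in carcinoma cells, is listed at 0 in all 6 libraries. The same holds for genes that most cells use, such as Cnot9 of the CCR4-NOT complex and the augmin genes Haus3 and Haus5, so a 0 in this matrix can mean that a gene was not counted, and no limit on the level of Tubb3 is drawn from it. The same caution applies to the other genes listed at 0. The neuronal markers Rbfox3, Syp, Snap25 and Map2 summed to 14.3 to 15.9 CPM in the control and 11.7 to 16.6 CPM in the 4-OHT libraries, mostly from Map2, which was not called, and Syp had 1 read in all.

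**Figure D2:**
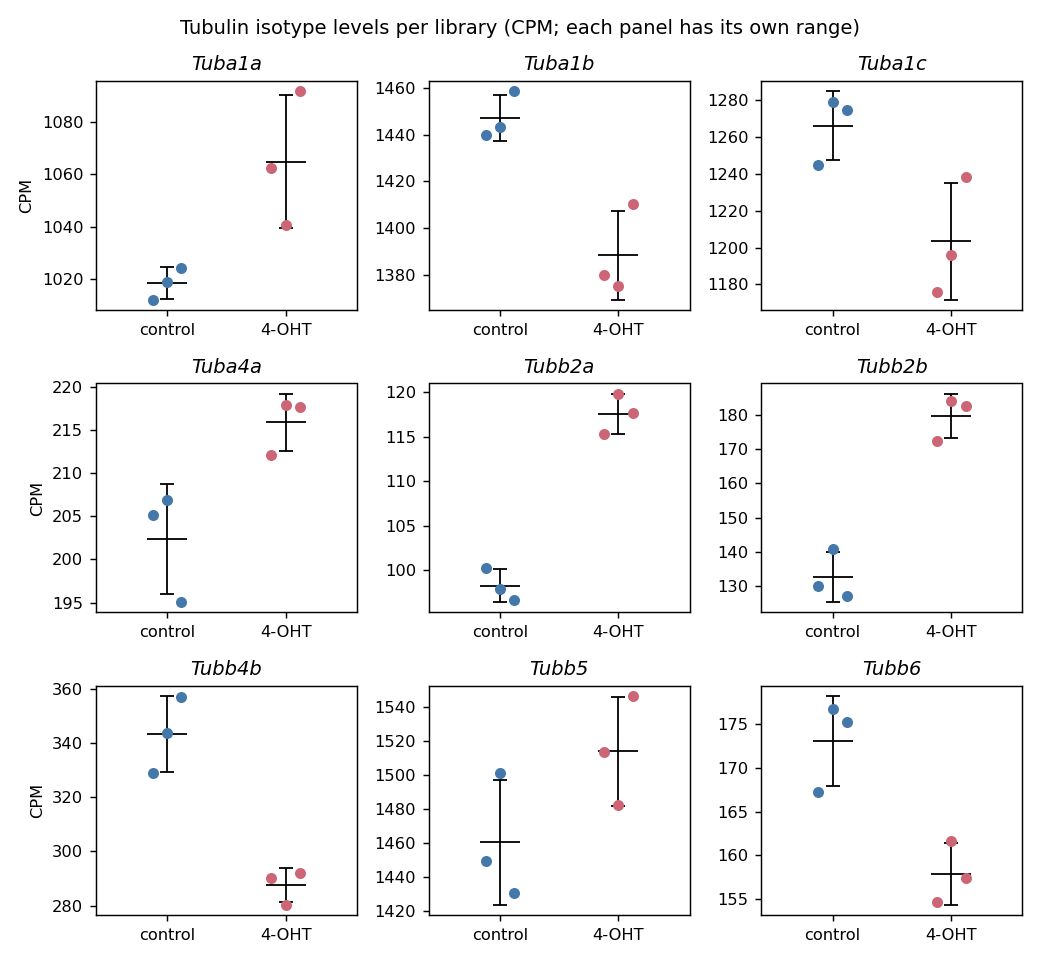
Level of the 9 tubulin genes with reads in each library (CPM on the vertical axis, with its own range in each panel); points are libraries, the line is the mean and the bars are the SD over 3 libraries. In Tubb2b the 4-OHT libraries lie at 172.3 to 184.0 CPM, above all control libraries, in Tubb4b at 280.4 to 292.1 CPM, below all of them, and only in Tubb5 do the groups overlap.

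The alpha isotypes moved little, and none passed the test. Tuba1a, prominent in neurons but widely expressed, was at 1012, 1019 and 1024 CPM in the control and 1062, 1041 and 1092 CPM in the 4-OHT libraries. Every 4-OHT value was above every control value (log2 fold change 0.06, SE 0.03, edgeR adjusted p = 0.165). Tuba1b, the main isotype of many dividing cells, was at 1440.0, 1443 and 1458 CPM in the control and 1380.0, 1375 and 1410.3 CPM in the 4-OHT libraries. Here every 4-OHT value was below every control value (log2 fold change -0.06, SE 0.03, edgeR adjusted p = 0.187).

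Tuba1c, another alpha gene of the same cluster, was at 1245, 1279 and 1275 CPM in the control and 1176, 1196 and 1238 CPM in the 4-OHT libraries. Its groups were again separate with the 4-OHT libraries below (log2 fold change -0.07, SE 0.03, edgeR adjusted p = 0.092). It passed in limma-voom (adjusted p = 0.045) and without 4-OHT replicate 3 (0.026). Tuba4a, an alpha tubulin whose mRNA does not encode the terminal tyrosine, was at 205.2, 206.9 and 195.1 CPM in the control and 212.1, 218.0 and 217.7 CPM in the 4-OHT libraries. Control replicate 3 was the lowest, and the groups did not overlap (log2 fold change 0.09, SE 0.04, edgeR adjusted p = 0.150).

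The 95% intervals of these alpha changes were narrow, but they rest on a spread between libraries that may be technical. That of Tuba1a ran from 0.504% to 8.84% above control, and that of Tuba4a from 0.869% to 12.8% above. That of Tuba1b ran from -7.65% to -0.328%, and that of Tuba1c from -8.62% to -1.15%. Each interval is for 1 gene and is not adjusted for the number of genes tested, so an interval that leaves out 0 does not make a call.

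Tuba1b, Tuba1a and Tuba1c lie in a cluster on chromosome 15, at 98931429 to 98934390, 98949847 to 98953501 and 99029891 to 99038105, with gaps of 15456 and 76389 bases. Their proteins are nearly identical, and how reads that match more than 1 of them were counted is uncertain. Tuba1b also lies within the span of the lncRNA Gm41396, which was not analysed here. Summed, they were at 3732 ± 31.1 CPM in the control and 3657 ± 72.4 CPM in the 4-OHT libraries (log2 fold change -0.03, SE 0.03, edgeR adjusted p = 0.590). Tuba4a, on chromosome 1 at 75214972 to 75221261, shares 635 bases with Stk16, which was not called (log2 fold change 0.0098), and 1167 bases with A630095N17Rik, which had 3 to 5 reads per library.

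**Figure D3:**
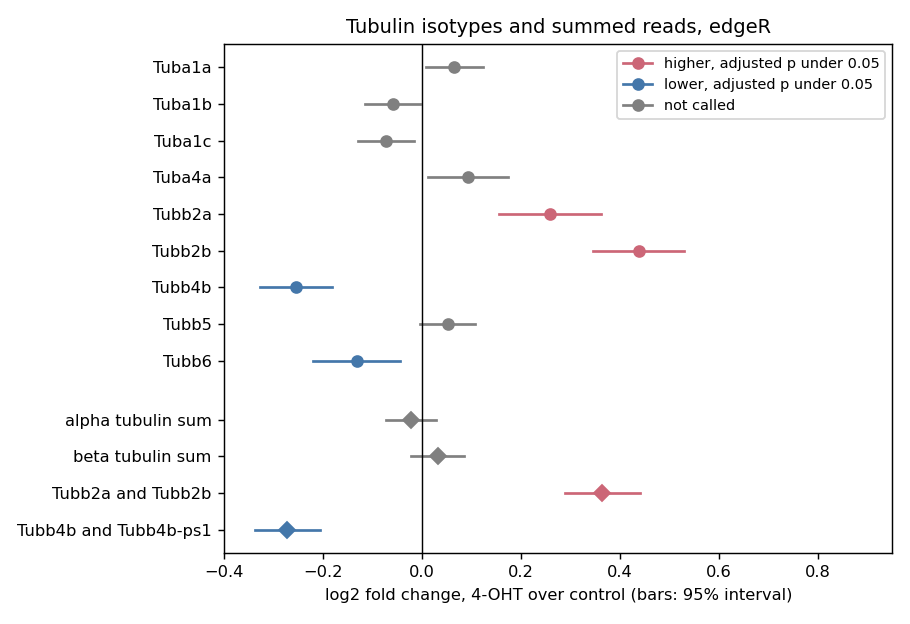
log2 fold change of 4-OHT over control for 9 tubulin genes (circles) and for 4 sums of reads (diamonds), with 95% intervals from the edgeR fit; colour shows the call. Tubb2b (0.44) and Tubb2a (0.26) lie to the right, Tubb4b (-0.25) and Tubb6 (-0.13) to the left, and the alpha and beta sums near 0.

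The pools of subunit mRNA were nearly level between the groups. All alpha isotypes together stood at 3902, 3948 and 3952 CPM in the control and 3830.4, 3830.1 and 3958 CPM in the 4-OHT libraries. The ranges overlapped (log2 fold change -0.02, 95% interval -0.07 to 0.03, edgeR adjusted p = 0.699). In percent this interval ran from a fall of 5.00% to a rise of 2.02%, on a spread between libraries that may be technical. All beta isotypes together stood at 2176, 2260.4 and 2186 CPM in the control and 2246, 2228 and 2296 CPM in the 4-OHT libraries. These ranges also overlapped (log2 fold change 0.03, 95% interval -0.02 to 0.08, edgeR adjusted p = 0.565), which leaves room for a rise of up to 6.07%. In exact permutation tests over the 6 libraries the alpha sum had p = 0.40 and the beta sum p = 0.30 (two-sided).

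The alpha over beta read ratio was 1.79, 1.75 and 1.81 in the control and 1.71, 1.72 and 1.72 in the 4-OHT libraries. Every 4-OHT ratio was below every control ratio (exact permutation p = 0.10, the smallest that 3 against 3 allows). Adjusted over the 5 ratios chosen after the values were seen, this p was 0.125. The separation depends on leaving the reads of Tubb4b-ps1 out of the beta reads. With them added, control replicate 2 is no longer above every 4-OHT library. Reads are not scaled by transcript length here, so this ratio is no count of subunit mRNAs.

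Within the beta pool the shares of 4 isotypes did not overlap between the groups, although no exact test of a share can pass 0.05 here. Tubb4b took 15.1%, 15.2% and 16.3% of the beta reads in the control and 12.9%, 12.6% and 12.7% in the 4-OHT libraries. Tubb2b took 5.98%, 6.23% and 5.81% in the control and 7.67%, 8.26% and 7.95% in the 4-OHT libraries, and Tubb2a went from 4.45% ± 0.142 to 5.21% ± 0.143 (SD, n = 3 each). The share of Tubb6 was 7.84% ± 0.164 in the control and 7.00% ± 0.220 in the 4-OHT libraries. That of Tubb5 was 66.2% ± 0.632 and 67.1% ± 0.486, with overlapping groups. The beta total behind these shares leaves out the reads of Tubb4b-ps1. With them added to the total, the groups of Tubb5 no longer overlap. The Tubb2a and Tubb2b reads together were 0.701, 0.695 and 0.627 times those of Tubb4b in the control and 0.991, 1.08 and 1.03 times in the 4-OHT libraries (exact permutation p = 0.10, adjusted 0.125 over the 5 ratios). With the pseudogene added to Tubb4b, the class II reads were fewer than those of the sum in every library, at 1696, 1801 and 1769 against 2610, 2525 and 2634 reads in the 4-OHT libraries.

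Within the alpha pool the same held for all 4 isotypes, with differences between group means of 0.431 to 1.61 percentage points in size. Tuba1a took 25.9% ± 0.0695 of the alpha reads in the control and 27.5% ± 0.293 in the 4-OHT libraries. Tuba1b went from 36.8% ± 0.197 to 35.9% ± 0.203, and Tuba1c from 32.2% ± 0.252 to 31.1% ± 0.321. Tuba4a took 5.26%, 5.24% and 4.94% in the control and 5.54%, 5.69% and 5.50% in the 4-OHT libraries. These shares do not depend on how libraries are scaled, although within a pool they are not independent of each other. The groups did not overlap for 8 of the 9 isotypes with reads, each with the smallest exact permutation p possible, 0.10 (0.1125 adjusted over the 9), and Tubb5 had p = 0.20. In CPM, 24.3% of all genes tested had groups that did not overlap. No such background was computed for shares within a pool, so this count is not read as a result about the isotypes.

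**Figure D4:**
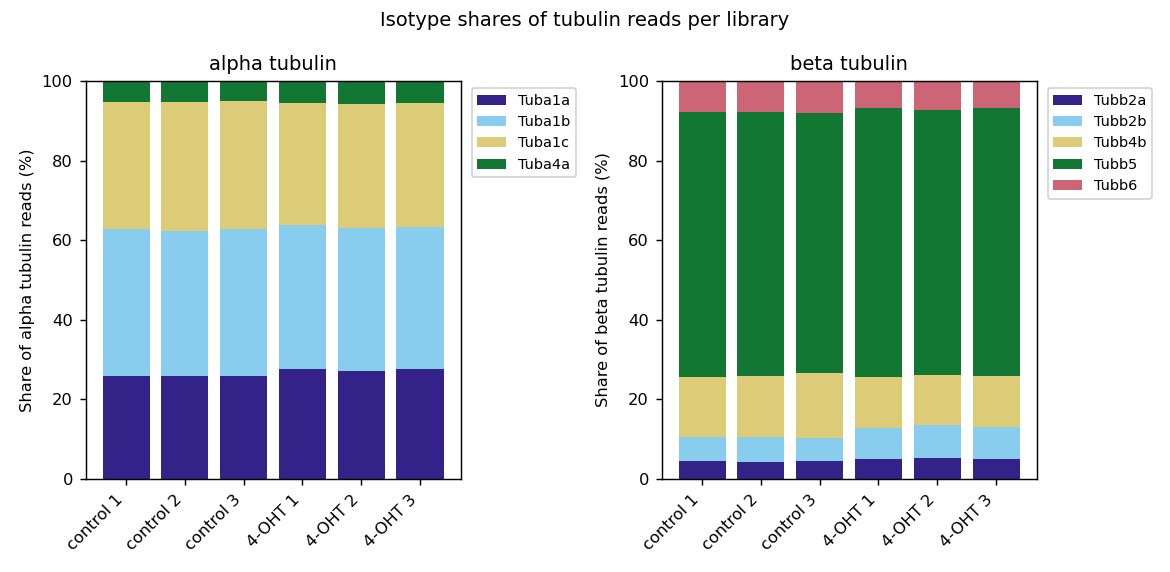
Share of each isotype in the alpha (left) and beta (right) tubulin reads of each library, in percent of reads. In the 4-OHT libraries the Tubb4b segment is thinner (12.6% to 12.9% against 15.1% to 16.3%) and the Tubb2b segment thicker (7.67% to 8.26% against 5.81% to 6.23%).

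The authors' deposited table gave the same calls at an FDR of 0.05 for Tubb2b (log2 fold change 0.43, FDR 5.2e-16), Tubb2a (0.26, FDR 0.00025) and Tubb4b (-0.26, FDR 3.2e-08). Tubb6 did not pass in the authors' deposited table (FDR 0.071), and neither did the alpha isotypes or Tubb5 (FDR 0.184 to 0.513). That table compares the same 6 libraries, so the match is no independent support.

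Genes that make, modify and bind tubulin were followed as lists of known function. Of all genes tested, edgeR called 9.79% (5.17% lower and 4.61% higher). The called share of tested genes was 15.8% for folding and 15.8% for dimer and polymer binding. It was 9.09% for autoregulation, 6.67% for nucleation and 5.56% for modification. These counts are small, and no list is read as changed as a whole. Among 10 further tubulin genes, 5 were tested and 0 were called in edgeR at an adjusted p under 0.05. They included Tubg1, the gamma-tubulin of nucleating complexes, at 79.1 ± 4.30 and 75.7 ± 4.18 CPM (edgeR adjusted p = 0.616). Tuba3a and Tuba3b are listed at 0, and Tubb1, Tubb4a and Tubal3 had at most 9 in a library.

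Of 19 tested genes of tubulin folding, namely prefoldin, the CCT chaperonin and the tubulin cofactors, 2 were lower and 1 was higher (median log2 fold change 0.0020). Tbce, a cofactor that helps assemble the dimer, was at 493.8, 506.8 and 491.9 CPM in the control and 458.2, 437.8 and 434.3 CPM in the 4-OHT libraries. It was lower in each of the 3 (log2 fold change -0.17, SE 0.03, edgeR adjusted p = 0.00012). All 14 alternative fits kept this call. Tbcd, a partner of Tbce in the same step, rose from 51.1 ± 3.37 to 60.3 ± 5.18 CPM (log2 fold change 0.24, edgeR adjusted p = 0.017). The Tbcd call was lost in DESeq2 (adjusted p = 0.217) and when control replicate 1 (0.105) or 2 (0.097) or 4-OHT replicate 2 (0.206) was left out. Tcp1, a chaperonin subunit named after its value was seen, had a log2 fold change of -0.11 (edgeR adjusted p = 0.021), lost in DESeq2 (0.136) and without control replicate 2 (0.196) or 4-OHT replicate 2 (0.126).

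The genes of tubulin mRNA autoregulation, Ttc5, Scaper and the CCR4-NOT deadenylase, had 1 lower and 0 higher of 11 tested (median log2 fold change -0.02). This was Cnot1, the scaffold of the deadenylase, at 298.7, 299.0 and 289.8 CPM in the control and 265.5, 285.3 and 257.6 CPM in the 4-OHT libraries (log2 fold change -0.13, edgeR adjusted p = 0.011). Its call was lost in DESeq2 (adjusted p = 0.113) and without control replicate 1 (0.079), 4-OHT replicate 1 (0.057) or 4-OHT replicate 3 (0.083).

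Of 15 tested genes of microtubule nucleation, the gamma-tubulin ring complex and augmin, 1 was lower and 0 higher (median log2 fold change -0.02). Mzt1, a small subunit of the ring complex, was at 56.7, 58.0 and 59.0 CPM in the control and 48.2, 46.9 and 47.9 CPM in the 4-OHT libraries, with a wide gap between the groups (log2 fold change -0.28, SE 0.07, edgeR adjusted p = 0.0030). DESeq2 did not call it (adjusted p = 0.067), and all other fits did.

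Of 18 tested genes that modify tubulin tails or lysine residues, 1 was lower and 0 higher (median log2 fold change 0.07). Ttll3, a glycylase of the tubulin tyrosine ligase-like family, had 98, 79 and 76 reads in the control and 51, 71 and 51 in the 4-OHT libraries (log2 fold change -0.57, SE 0.15, edgeR adjusted p = 0.0059). The groups did not overlap, but the counts were low, and the call was lost in DESeq2 (adjusted p = 0.108) and without control replicate 1 (0.119) or 4-OHT replicate 1 (0.0505).

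Of 19 tested genes for proteins that bind the dimer or the polymer, 2 were lower and 1 was higher (median log2 fold change 0.02). Ckap5, a polymerase of microtubule plus ends that also acts at spindle poles, was at 232.6, 224.6 and 243.4 CPM in the control and 146.8, 158.2 and 158.5 CPM in the 4-OHT libraries. Its fall (log2 fold change -0.60, SE 0.04, edgeR adjusted p = 7.4e-21) was larger than that of any tubulin gene tested. Stmn1, which sequesters free dimers, was at 163.8, 159.4 and 169.7 CPM in the control and 136.0, 139.7 and 151.0 CPM in the 4-OHT libraries (log2 fold change -0.21, SE 0.05, edgeR adjusted p = 0.00070). Both calls held in all 14 alternative fits. Clip1, a plus-end tracking protein gene named after its value was seen, had a log2 fold change of 0.16 (edgeR adjusted p = 0.025), lost in DESeq2 (0.245) and when control replicate 1 (0.091) or 2 (0.106) or 4-OHT replicate 1 (0.233) or 2 (0.074) was left out.

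**Figure D5:**
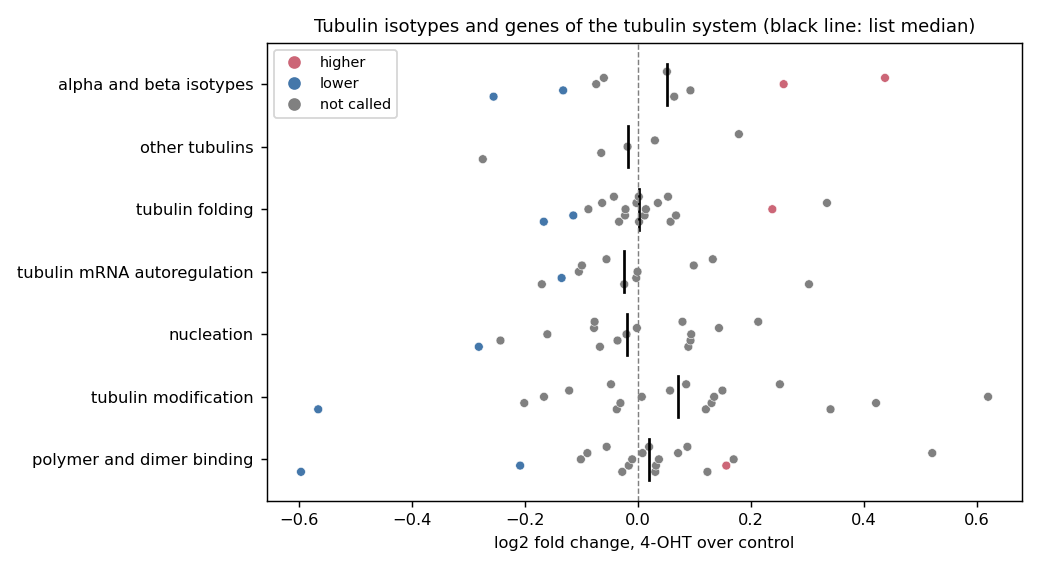
log2 fold change of 4-OHT over control for tested genes of the tubulin lists; each point is a gene, colour shows its edgeR call and the black line is the median of the list. Ckap5 (-0.60) and Ttll3 (-0.57) lie farthest to the left, and the 5 other tubulins hold no call.

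Across the 6 libraries the protein-coding genes most like Tubb2b and Tubb4b were listed by the Euclidean distance between log2 CPM profiles, each centred on its own mean. This measure follows the group difference above all, and says nothing of shared function or control. Nearest to Tubb2b were Itih5 (distance 0.104), Dusp16 (0.110), Pik3r5 (0.121), Fmnl3 (0.133) and Dpysl3 (0.135). Of these all but Itih5 (edgeR adjusted p = 0.129) were called higher, and Dpysl3, which encodes a microtubule- and actin-associated protein of the collapsin response mediator family, had means of 143.4 CPM (control) and 185.3 CPM (4-OHT). Nearest to Tubb4b were Mzt1 (distance 0.057), Padi4 (0.063), Yars2 (0.068), Usp1 (0.068) and Samd5 (0.069). Mzt1, Padi4 and Usp1 were called lower, and Yars2 and Samd5 were not (edgeR adjusted p = 0.188 and 0.108).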

How the data were processed

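Of 33 samples in the series, the 6 polyA RNA libraries of KPL cells were used, and 27 ChIP-seq libraries were not analysed here. The authors deposited a matrix of raw read counts per Ensembl gene. Their comparison table gives the log2 fold change and log2 mean CPM, and the p-value and FDR, per the file headers. Tools named without roles in the submitters' processing notes are edgeR, TopHat2 2.1.0, Bowtie2, Bowtie 1.1.2 and bedtools 2.26.0. Which program counted reads, whether it used strand and how it treated reads with several matches is not given in the sources used here.

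Repeated lines (27) were dropped, leaving 38924 genes. In R 4.3.3 with edgeR 4.0.16, filterByExpr (minimum count 10, minimum total 15) left 13355 genes with 99.7% of the reads. Groups were compared by the robust quasi-likelihood F test, two-sided, with TMM scaling and no block, and p-values were adjusted by Benjamini-Hochberg over all genes. SE is the size of the log2 fold change over the square root of F. Sums of isotypes were fitted as 1 feature in the whole table. On simulated counts for this comparison (13355 genes, 50 changed at each size) the test recovered 54% of changes of 1.25-fold and 94% of those of 1.5-fold. It recovered 98% at 2-fold and 100% at 3-fold, with 15 false calls among 188. The changed genes were drawn from those above a floor of reads, and all genes were given the same spread between libraries. Recovery for genes with few reads, or with a spread of their own, was not simulated. Alternatives were other scalings and filters, DESeq2 1.42.0, limma-voom (limma 3.58.1), a non-robust fit, a replicate block and leaving out each library. Counts of libraries within a group differed beyond sampling noise (1.26 to 1.48 chi-square units for each degree of freedom), and none were merged.

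The members, lists and alternatives were chosen with earlier results of these data known. Named genes were all members, Lin9, the 2 called genes with the smallest p per list (or, with none, the tested gene of highest CPM), and the 5 protein-coding genes nearest in profile to the 2 members of smallest p. Tcp1 and Clip1 are marked as named after their values were seen. Cell type markers, genes that overlap a member, Tubb4b-ps1 with Zfp804b, and genes with few or 0 reads were also named outside this rule. Cnot9, Haus3 and Haus5 were named for their counts of 0. Gene positions and promoters are from RefSeq, GRCm38.p6. No protein or transcript lengths were used, so levels of different genes were not compared per length.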

Additional observations from a re-analysis of the deposited data

How the results depend on the processing

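Tubb2b, Tubb2a and Tubb4b kept their calls in all 14 alternative fits. The number of tubulin genes called lower was 1 in place of 2, through loss of Tubb6, with library totals alone, no low-count filter, DESeq2 and the replicate block (adjusted p = 0.050 for Tubb6), and 1 to 2 when 1 library was left out. In limma-voom and without 4-OHT replicate 3 it stayed at 2, with Tuba1c called in place of Tubb6. Over all genes DESeq2 called 362 lower and 208 higher, and leaving out 1 library gave 508 to 643 lower and 403 to 542 higher, with the fewest without control replicate 1. In DESeq2 the lists held 1 lower and 0 higher for folding, 0 lower for autoregulation, nucleation and modification, and 0 higher for dimer and polymer binding. Without a low-count filter 2 were higher in the binding list. When 1 library was left out, the folding list had 1 to 3 lower and 0 to 1 higher, autoregulation 0 to 1 lower, modification 0 to 1 lower and 0 to 1 higher, and binding 0 to 2 higher. With reads of Tuba1a, Tuba1b and Tuba1c summed, the sign opposite to that of Tuba1a resulted (-0.029); the cluster sum holds more Tuba1b and Tuba1c than Tuba1a reads. The causes of the other differences between fits were not tested. Differences in summed level, none of them called, moved by over 1.5 times when 1 library was left out. That of the alpha sum (-61.1 CPM) was -39.9 without 4-OHT replicate 1, -39.7 without 4-OHT replicate 2 and -104 without 4-OHT replicate 3, and -36.1 with library totals alone. That of the beta sum (48.9 CPM) was 75.3 without control replicate 2 and 29.2 without 4-OHT replicate 3. The Tubb5 share difference (0.929 percentage points) was 0.569 without control replicate 3, and no other share difference moved by over 1.5 times. The replicate block gave 665 lower over all genes and 579 higher; same-numbered libraries did not deviate together (correlations -0.026 to 0.0096), so the numbers do not pair the libraries. Isotype shares per coding length were not run, as lengths were not used here. Depth limits the isotypes with fewest reads most: the SE of the log2 fold change was 0.05 for Tubb2a, at 98.3 CPM in control, and 0.03 for Tuba1b, at 1447 CPM.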
